A study of Mus musculus with 6 samples.

Results

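Hmox1, Blvrb, Slc48a1, Slc11a1, Tfrc, Fth1, Ftl1, Slc40a1 and Cp, 9 genes of heme and iron handling, were followed through the cells of the mouse heart other than cardiomyocytes after myocardial infarction. They were chosen by name, as 9 of the 32285 genes counted, and all 9 were found by symbol and Ensembl identifier. Hearts came from male mice aged 8 to 12 weeks, either wild type of the strain C57BL/6JRj (WT) or of the Trpm4 knockout strain B6.Cg-Trpm4tm1.2-PG (KO). Trpm4 encodes a cation channel opened by intracellular calcium, and the labels name no cell type to which the knockout is restricted. Each genotype had 3 groups: a sham operation with cells taken at 24 h, LAD ligation, the tying of the left anterior descending artery that supplies the left ventricle, with cells taken at 24 h, and the same ligation with cells taken at 72 h. No sham was sampled at 72 h, so the 72 h libraries were compared with the ligation libraries at 24 h. Ventricles were digested with thermolysin and papain, large pieces and cardiomyocytes were removed on meshes, and a sort on Calcein-AM and DAPI kept the living cells. Each group is 1 library of the 10x 3' assay, made from the pooled cells of 4 mice, so no difference below has a replicate check, no test was made, and every interval covers counting error only.

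Heme set free from damaged cells and from hemoglobin is taken apart by heme oxygenase 1 (Hmox1) into iron, carbon monoxide and biliverdin. Biliverdin reductase B (Blvrb) belongs to the reductases that act on the biliverdins and on flavins, and HRG1 (Slc48a1) moves heme out of the phagolysosome. Iron from the phagosome is moved by NRAMP1 (Slc11a1), a transporter of macrophages and neutrophils, and iron bound to transferrin enters through the transferrin receptor (Tfrc). It is stored in ferritin, a shell built of heavy (Fth1) and light (Ftl1) chains, and leaves the cell only through ferroportin (Slc40a1), where ceruloplasmin (Cp) oxidises it for binding to transferrin. Macrophages that clear dying cells are the main site of this recycling. In GENCODE M21 (GRCm38) the genes of heme breakdown and transport lie at chr8:75093621-75100589 (Hmox1), chr7:27447978-27466144 (Blvrb) and chr15:97778520-97792692 (Slc48a1), and those of iron uptake at chr1:74375195-74386062 (Slc11a1) and chr16:32608920-32632794 (Tfrc). Storage and export genes lie at chr19:9980598-9985098 (Fth1), chr7:45457944-45459884 (Ftl1), chr1:45908068-45926523 (Slc40a1) and chr3:19957054-20009145 (Cp).

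The RNAs of 4 of the 9 genes carry iron-responsive elements, hairpins that the iron regulatory proteins bind when iron is scarce. Binding in the 5' UTR holds back translation, and binding in the 3' UTR protects the RNA from decay, so RNA levels of Fth1, Ftl1 and Slc40a1 need not follow their protein. The elements are shown because they are the part of these RNAs through which iron is known to act. The transcripts of GENCODE M21 (GRCm38, which is mm10) were searched on the transcript strand for a C, 5 bases, the loop CAGTGN, and 5 bases able to pair with the first 5, with G to T pairs allowed. Capitals mark the bulged C and the loop, and DNA letters stand for the RNA.
Fth1, 5' UTR, chr19:9982730-9982759, plus strand: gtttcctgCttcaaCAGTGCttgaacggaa
Ftl1, 5' UTR, chr7:45459780-45459809, minus strand: gtgtcttgCttcaaCAGTGTttgaacggaa
Slc40a1, 5' UTR, chr1:45925466-45925495, minus strand: tccaacttCagctaCAGTGTtagctaagtt
Tfrc, 3' UTR, chr16:32631217-32631246, plus strand: ataattatCggaagCAGTGCcttccataat
Tfrc, 3' UTR, chr16:32631596-32631625, plus strand: cacattatCgggagCAGTGTcttccataat
Tfrc, 3' UTR, chr16:32631661-32631690, plus strand: gtctatatCggagaCAGTGAtctccatatg
Tfrc, 3' UTR, chr16:32631708-32631737, plus strand: gtaattatCgggaaCAGTGTttcccataat
All 7 lie within 1 exon. Of 20916 protein-coding genes with an annotated 5' UTR, 30 held such a match there (0.143%), and of 21707 with a 3' UTR, 128 did (0.59%). These letters were not found in the UTRs of Hmox1, Blvrb, Slc48a1, Slc11a1 and Cp, which says only that this pattern is not there.

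The 6 libraries held 34940 deposited cells, of which 31911 were kept, with 38 clusters sorted into classes by marker genes. The 4 main classes were monocyte/macrophage-like (8747 cells), blood endothelial-like (7853), neutrophil-like (7537) and fibroblast-like (2567), and every cluster in them had at least 6 markers of its class detected. None of the 9 genes, and none of the pathway genes below, was used for clustering. Trpm4 was low in every library, at 8.79 CPM in WT and 6.20 CPM in KO after sham, 5.52 and 3.46 CPM at ligation 24 h, and 4.29 and 2.57 CPM at ligation 72 h; whether its 3' reads lie outside the part deleted in the KO is not given in the sources used here, so these levels do not check the genotype. Pairs of libraries shared 3 to 14 cell barcodes. Levels in CPM are UMIs of a gene scaled to the same total of UMIs in each class and library. In these bulk sums of a class, fewer cells with an RNA and less RNA per cell cannot be told apart. A ratio was formed where both libraries had at least 100 cells of the class and the gene had at least 50 UMIs over the pair, and a count of 0 was set to 3.

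The KO library at ligation 72 h stood apart. Its kept cells had a median of 1280 UMIs, against 3094 to 8113 in the other 5 libraries, and 55.7% of them had under 1500 UMIs, against 5.56% to 10.9%. Hemoglobin genes summed to 212 CPM in its kept cells, against 8.65 to 69.4 CPM in the other 5 libraries. The part of this RNA in the values below was not tested. Macrophage RNA was also found in its other classes: the 16 monocyte/macrophage markers summed to 8896 CPM in its endothelial-like cells, against 631 to 1375 CPM in the other 5 libraries, and to 10929 CPM in its fibroblast-like cells, against 2251 to 4999 CPM. In both classes all 16 markers were at least 2-fold higher than in the WT library of that time, and none was at 0 in either. In its B cell-like cells the sum of 1908 CPM lay within the range of the other libraries, 1448 to 4312 CPM, but 8 of the 16 markers were at least 2-fold higher than in WT at that time, and Fcgr1 and Ccr2 were at 0. Neutrophil markers summed to 4375 CPM in its endothelial-like cells, against 227 CPM in WT at 72 h, and to 2297 CPM in its fibroblast-like cells, against 208 CPM. The KO library at ligation 24 h also had neutrophil markers in both classes, at 5589 CPM in endothelial-like and 1344 CPM in fibroblast-like cells, against 139 and 325 CPM in KO after sham and 621 and 474 CPM in WT at ligation 24 h. These sums belong to every value of the 2 libraries in these classes below, and their part in those values was not tested.

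**Figure D1:**
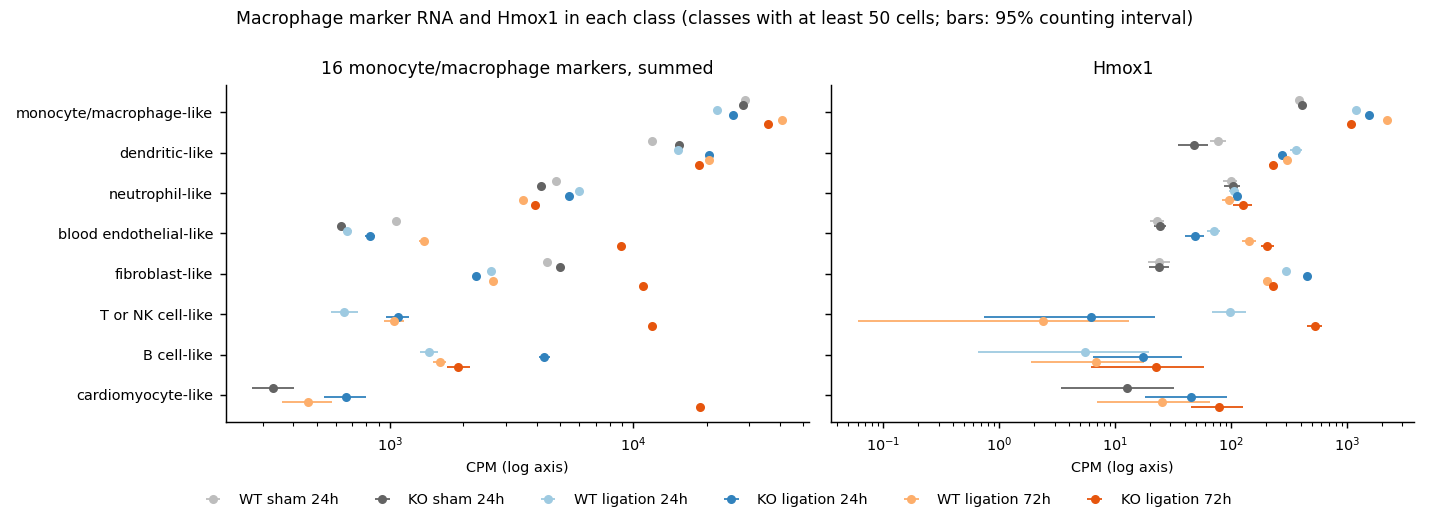
Left, the summed level of 16 monocyte/macrophage markers, and right, the level of Hmox1, in CPM on a log axis, for classes with at least 50 cells; each point is 1 library and bars are 95% counting intervals. The KO library at 72 h lies far to the right of the others for the marker sum in endothelial-like (8896 CPM), fibroblast-like (10929 CPM), T or NK cell-like and cardiomyocyte-like cells.

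Each gene had its own distribution over the classes. Hmox1 was highest in the monocyte/macrophage-like class in 5 of the 6 libraries and Slc40a1 in the neutrophil-like class in all 6. Cp was highest in fibroblast-like cells in 4 libraries, in pericyte-like cells in 1 and in lymphatic endothelial-like cells in 1. Slc11a1 was highest in neutrophil-like cells in 4 libraries and in monocyte/macrophage-like cells in the other 2, both at 72 h. Fth1 was highest in neutrophil-like cells in 3 libraries. Ftl1 and Blvrb were each highest in monocyte/macrophage-like cells in 3 libraries and in platelet-like cells in 3, a class of 417 cells. Tfrc was low in every class, and 5 different classes held its highest level in at least 1 library.

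**Figure D2:**
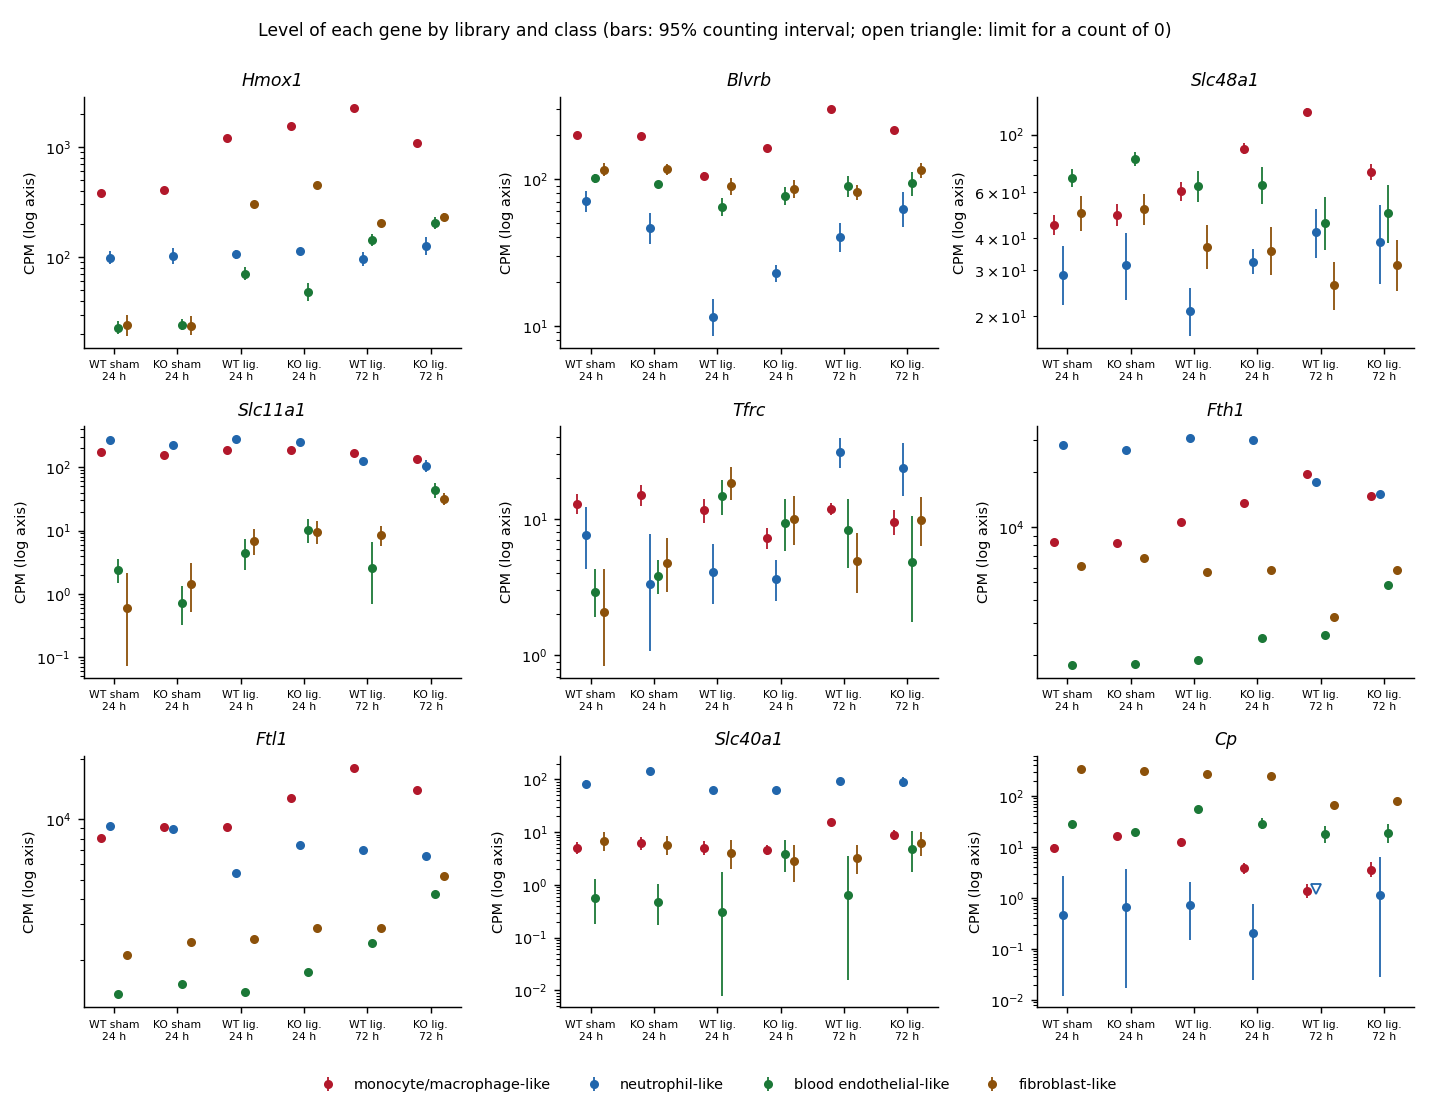
CPM (log axis) of the 9 genes in the 4 main classes, with 1 panel per gene and the 6 libraries along the horizontal axis; bars are 95% counting intervals, and the open triangle is the limit for a count of 0. Hmox1 in monocyte/macrophage-like cells goes from 382 and 406 CPM after sham to 1193 and 1534 CPM at ligation 24 h, while neutrophil-like cells stay between 95.6 and 127 CPM.

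Over the 4 main classes, 30 pairs of gene and class could be compared between ligation and sham at 24 h in WT and 29 in KO. In WT, 5 pairs were at least 2-fold higher after ligation, against 4.41% of all gene and class pairs, and 1 was at least 2-fold lower, against 5.14%. In KO, 3 were higher, against 3.33%, and 4 were lower, against 5.83%. Between ligation 72 h and ligation 24 h, 31 pairs were compared in WT, with 7 higher (12.2% of all pairs) and 5 lower (9.4%), and 32 in KO, with 6 higher (12.3%) and 2 lower (5.47%). The pairs at least 2-fold higher at 24 h were all of Hmox1 and Tfrc, in both genotypes. CPM are relative levels, and the median gene itself had a log2 ratio of -0.28 to 0.13 over these comparisons in monocyte/macrophage-like cells, but of 0.55 in WT and 0.52 in KO in neutrophil-like cells from 24 h to 72 h; values relative to the median gene are added below where they change a call or a direction.

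Hmox1, the enzyme that opens the heme ring, had the largest ratio of the 9 genes between ligation and sham at 24 h, in fibroblast-like cells, although Tfrc had the larger one in endothelial-like cells and Blvrb in neutrophil-like cells. In monocyte/macrophage-like cells its level was 382 CPM in WT and 406 CPM in KO after sham, 1193 and 1534 CPM at ligation 24 h, and 2232 and 1088 CPM at ligation 72 h, each with a counting interval of at most 3.37% on either side. All 4 ligation libraries lay above both sham libraries. At 24 h the level was 3.12-fold that of sham in WT (95% counting interval 3.01 to 3.24) and 3.78-fold in KO (3.65 to 3.91). From 24 h to 72 h the log2 ratio was 0.90 in WT (0.87 to 0.93) and -0.50 in KO (-0.53 to -0.46). The summed level of 10 genes that respond to tissue handling (Fos, Jun, Hspa1a and others) was 3381 and 3222 CPM in this class after sham, 5127 and 3901 CPM at ligation 24 h, and 2361 and 3358 CPM at 72 h. It was thus higher at 24 h than after sham in both genotypes, as Hmox1 was, and its part in the difference was not tested.

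Within this class Hmox1 followed the cluster as well as the library. Cluster 4, led by Ccl2, Ccl7, Spp1 and Arg1, genes of inflammatory macrophages, also had Hmox1 among its 10 leading genes and held 556 and 681 CPM after sham in WT and KO, 1810 and 1862 CPM at ligation 24 h, and 3938 and 2110 CPM at 72 h. Cluster 7, led by Ccl24, Arg1 and Fn1, gave 316, 389, 866, 1688, 1703 and 1244 CPM in the same order. Both clusters were higher in every ligation library than in either sham library. Cluster 9, led by Ear2, Adgre4 and Plac8, genes of blood monocytes, stayed far lower, at 249, 172, 295, 329, 395 and 473 CPM. Cluster 17, led by Mgl2, Cbr2, Cd163 and Lyve1, genes of resident cardiac macrophages, had 172 CPM in WT and 221 CPM in KO after sham and 352 CPM in KO at ligation 24 h, the 3 libraries with at least 50 of its cells. At 72 h, cluster 10, led by Fcrls, Gpnmb, Trem2 and C1qa, had 3002 CPM in WT and 1232 CPM in KO.

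Fibroblast-like cells had the largest ratio. Hmox1 stood at 24.0 CPM in WT and 23.9 CPM in KO after sham, 300 and 453 CPM at ligation 24 h, and 202 and 230 CPM at 72 h. The last stood beside 10929 CPM of macrophage markers. Per 100 UMIs of those markers, KO at 72 h had 2.10 Hmox1 UMIs in these cells and 3.04 in its monocyte/macrophage-like cells. The part of macrophage RNA in that level was not tested. All 4 ligation libraries lay above both sham libraries. The 24 h level was 12.5-fold that of sham in WT (9.95 to 15.9) and 19.0-fold in KO (15.5 to 23.5). Most of the class's Hmox1 UMIs at that time, 784 in WT and 1060 in KO, were in cluster 33, described below. Cluster 13 had 44 and 56. Without doublet removal the log2 ratio was 2.30 in WT, against 3.65, and 3.53 in KO, against 4.24. The level was highest in cluster 33, led by Cxcl5, Ptx3, Cxcl1, Il6 and Il11, which held 64 WT and 75 KO cells at ligation 24 h against 5 and 21 after sham, too few there for a level. Its 24 h levels were 599 CPM in WT and 742 CPM in KO. Cluster 13, led by Clec3b, Serpina3n and Dpep1, held 24.9 and 25.7 CPM after sham and 35.4 and 60.9 CPM at ligation 24 h. At that time the fibroblast markers of cluster 33 gave 4353 and 3424 CPM, far below the 21157 and 24013 CPM of cluster 13, and none was among its 10 leading genes. Macrophage markers summed to 882 and 738 CPM in cluster 33 and to 2370 and 3601 CPM in cluster 13, and neutrophil markers to 326 and 779 CPM in cluster 33 and to 655 and 2341 CPM in cluster 13. Handling genes summed to 1826 and 1276 CPM in cluster 33 and to 2031 and 1954 CPM in cluster 13. At 72 h, 1 barcode held 46.9% of the WT class's Hmox1 UMIs, and without the leading barcode of each library the log2 ratio of 72 h to 24 h in WT was -1.04 in place of -0.57.

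Blood endothelial-like cells gave 22.9 and 24.4 CPM of Hmox1 after sham in WT and KO, 70.9 and 48.4 CPM at ligation 24 h, and 143 and 206 CPM at 72 h. At 24 h the ratio to sham was 3.10 in WT (2.55 to 3.76) and its log2 was 0.99 in KO (0.67 to 1.30). Among the clusters followed in WT it was highest in cluster 18 at both times, led by Apln, Pgf, Adamts4 and Gdf15, where it was 34.0 and 24.3 CPM after sham, 165 and 94.0 CPM at ligation 24 h and 227 CPM in WT at 72 h. In the larger clusters 0 and 3 no library with at least 50 cells exceeded 49.3 CPM. Macrophage markers summed to between 228 and 444 CPM in cluster 18 in these 5 libraries. Neutrophil markers in it went from 90.7 CPM after sham to 719 CPM at ligation 24 h in WT, from 71.1 to 8610 CPM in KO, and were 15.3 CPM in WT at 72 h. Its handling genes summed to 6229 CPM (WT) and 2221 CPM (KO) at ligation 24 h, against 955 and 1075 CPM after sham. The part of either list in the Hmox1 levels was not tested. The WT ratio of 72 h to 24 h did not hold its direction, with a log2 of 1.02 that was -0.59 at the coarser clustering, 0.04 as a mean over cells, and 0.56 without the leading barcode of each library; that barcode held 35.8% of the WT UMIs of Hmox1 at 72 h. At the coarser clustering the WT ratio of 24 h to sham was also smaller, 0.91 against 1.63. In the KO library at 72 h, Hmox1 was 352 CPM in cluster 12, where macrophage markers summed to 11573 CPM and neutrophil markers to 7412 CPM. It was 49.3 CPM in cluster 0, where they summed to 1716 and 1930 CPM. Per 100 macrophage marker UMIs this library had 2.31 Hmox1 UMIs in endothelial-like cells and 3.04 in monocyte/macrophage-like cells.

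Neutrophil-like cells differed from the other 3 classes. Hmox1 in them was 98.8, 103, 106, 113, 95.6 and 127 CPM (WT then KO after sham, at ligation 24 h and at ligation 72 h). No comparison in this class reached 2-fold, and the log2 ratios of ligation to sham at 24 h were 0.10 in WT (-0.14 to 0.35) and 0.14 in KO (-0.10 to 0.39). Handling genes summed to between 11344 and 14039 CPM in this class, above every other class. In cells thinned to 1000 UMIs, 7.31% to 9.31% of neutrophil-like cells had an Hmox1 UMI (14.6% to 20.2% unthinned), against 20.4% to 39.7% of monocyte/macrophage-like cells (46.7% to 83.4% unthinned). In B cell-like cells, which should have little of the gene, the thinned share was 0% to 1.67% over the 4 libraries with at least 50 of them (1.92% to 4.13% unthinned). Median depths were 1929 to 3162 UMIs in neutrophil-like, 1343 to 12003 in monocyte/macrophage-like and 2511 to 3053 in B cell-like cells, and 1007 of the 2650 monocyte/macrophage-like cells of KO at 72 h were too shallow to thin.

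**Figure D3:**
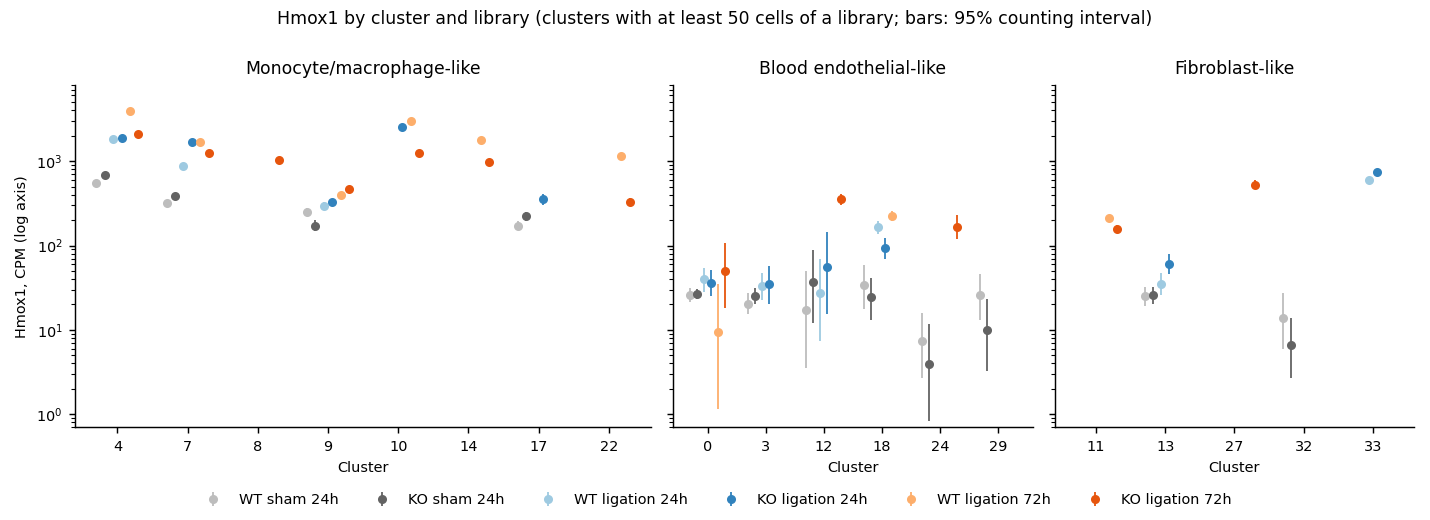
Hmox1 level in CPM (log axis) by cluster, in the monocyte/macrophage-like, blood endothelial-like and fibroblast-like classes; each point is 1 library with at least 50 cells of the cluster and bars are 95% counting intervals. Clusters 4 and 10 reach 3938 and 3002 CPM in WT at 72 h, and fibroblast cluster 33 lies at 599 and 742 CPM at ligation 24 h while cluster 13 stays below 61 CPM.

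Blvrb, the reductase of biliverdins and flavins, did not repeat the Hmox1 pattern at 24 h in monocyte/macrophage-like cells. Slc48a1 in this class was higher at ligation 24 h than after sham in both genotypes, as Hmox1 was, but by a smaller factor. Blvrb in monocyte/macrophage-like cells was 199 and 196 CPM after sham, 105 and 161 CPM at ligation 24 h, and 297 and 215 CPM at 72 h. The log2 ratio of 24 h to sham was -0.93 in WT (-1.04 to -0.81) and -0.28 in KO (-0.37 to -0.20), and from 24 h to 72 h the WT level was 2.83-fold higher (2.64 to 3.03). Resident macrophage-like cluster 17 was its richest source, at 605 CPM in WT and 570 CPM in KO after sham and 587 CPM in KO at ligation 24 h. The class held 202 cells of this cluster among 1048 in WT after sham and 35 among 657 at ligation 24 h. Cluster 10 came next, with 435 CPM in KO at ligation 24 h, 418 CPM in WT at 72 h and 302 CPM in KO at 72 h.

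Slc48a1, which exports heme from the phagolysosome, was 45.0 and 49.0 CPM in monocyte/macrophage-like cells after sham, 60.4 and 88.4 CPM at ligation 24 h, and 123 and 71.8 CPM at 72 h. Its order over the 6 libraries was the same as that of Hmox1, with WT at 72 h highest, except that KO at 72 h lay above rather than below WT at 24 h. The WT level at 72 h was 2.03-fold that at 24 h (1.85 to 2.23), and the KO log2 ratio was -0.30 (-0.43 to -0.17). In endothelial-like cells Slc48a1 stood at 45.7 to 80.5 CPM and was at least 2-fold different in no comparison. In neutrophil-like cells Slc48a1 was 28.8, 31.4, 20.8, 32.4, 41.9 and 38.5 CPM; the WT log2 ratio of 72 h to 24 h was 1.01 (0.56 to 1.46), but 0.47 relative to the median gene. Blvrb in these cells was 70.5, 46.1, 11.5, 22.7, 40.0 and 62.2 CPM, lowest in both ligation libraries at 24 h. The WT log2 ratio of 24 h to sham was -2.62 (-3.12 to -2.14) and the KO one -1.02 (-1.42 to -0.61), on 48 to 220 UMIs per library. The KO ratio was -0.86 relative to the median gene.

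Slc11a1, the phagosomal metal transporter, was highest in phagocytes but not confined to them. Smooth muscle-like cells had 38.3 to 57.7 CPM in 3 libraries and pericyte-like cells 10.2 to 70.4 CPM in 5. Per 100 macrophage marker UMIs, smooth muscle-like cells held 14.9 to 35.1 Slc11a1 UMIs, and monocyte/macrophage-like cells 0.376 to 0.838. Neutrophil-like cells had 270 and 225 CPM after sham, 277 and 249 CPM at ligation 24 h, and 125 and 105 CPM at 72 h. Both 72 h libraries lay below the other 4. From 24 h to 72 h the level was 2.21 times lower in WT, with a log2 ratio of -1.14 (-1.34 to -0.95), and 2.37 times lower in KO, with -1.24 (-1.56 to -0.94). Cluster 16, led by Siglecf, Itgax and Cxcr4, held 368 of the 944 neutrophil-like cells in WT at 72 h and 4 of 1149 at 24 h, and its level was 80.4 CPM at 72 h, although its 69 cells in WT after sham had 329 CPM. Cluster 1, led by Retnlg and S100a9, had 207 CPM at 24 h and 195 CPM at 72 h in WT, while cluster 5, led by Tnf, had 379 and 186 CPM. Monocyte/macrophage-like cells held 134 to 191 CPM with no 2-fold difference in any comparison. In endothelial-like and fibroblast-like cells Slc11a1 stayed at or below 10.1 CPM in 5 libraries and was 43.4 and 32.0 CPM in the KO library at 72 h, where macrophage markers summed to 8896 and 10929 CPM. Per 100 UMIs of those markers there were 0.376 Slc11a1 UMIs in the macrophages of this library, 0.487 in its endothelial-like cells and 0.292 in its fibroblast-like cells.

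Tfrc, which takes up transferrin-bound iron, was sparse, with levels from 2.07 to 30.7 CPM in the main classes. Fibroblast-like cells had 2.07 and 4.73 CPM after sham, 18.3 and 10.0 CPM at ligation 24 h, and 4.91 and 9.86 CPM at 72 h. The WT ratio at 24 h was 8.84 (4.00 to 23.1), on 7 UMIs after sham and 51 at 24 h. Cluster 33 held 48 of those 51 UMIs. Endothelial-like cells had 2.92 and 3.79 CPM after sham and 14.6 and 9.26 CPM at ligation 24 h, a ratio of 5.01 in WT (3.04 to 8.43) and 2.44 in KO (1.40 to 4.12). In the clusters with the highest Hmox1 the level was higher than in the class as a whole: fibroblast cluster 33 had 36.7 CPM in WT and 17.5 CPM in KO at ligation 24 h, and endothelial cluster 18 had 39.8 and 29.5 CPM, beside the neutrophil markers given for it above. Neutrophil-like cells had 7.57, 3.34, 4.07, 3.61, 30.7 and 23.8 CPM, so both 72 h libraries lay above the other 4, by 7.56-fold over 24 h in WT (4.37 to 13.8) and 6.58-fold in KO (3.64 to 11.6). The KO ratio rests on 35 and 21 UMIs. In WT at 72 h cluster 16 had 46.1 CPM (32.1 to 64.2) on 35 UMIs and cluster 1 had 7.48 CPM (0.91 to 27.0) on 2. In KO at 72 h no cluster had more than 8 UMIs, too few to order them. In monocyte/macrophage-like cells Tfrc was 12.9, 14.9, 11.5, 7.22, 11.9 and 9.48 CPM, and the KO log2 ratio of 24 h to sham was -1.04 (-1.40 to -0.68). Set against the median gene it was -0.76. At the coarser clustering the KO endothelial log2 ratio at 24 h was 0.43, against 1.29.

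The ferritin chains were among the most abundant RNAs of the phagocytes. Together Fth1 and Ftl1 made up 3.75% and 3.53% of the UMIs of neutrophil-like cells after sham in WT and KO, 3.61% and 3.77% at ligation 24 h, and 2.48% and 2.18% at 72 h. The share in monocyte/macrophage-like cells was 1.64% and 1.74% after sham, 1.99% and 2.63% at ligation 24 h, and 3.76% and 2.89% at 72 h. The share was thus higher in neutrophil-like cells after sham and at 24 h, and higher in monocyte/macrophage-like cells at 72 h, in both genotypes.

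Fth1 in monocyte/macrophage-like cells was 8294 and 8228 CPM after sham, 10696 and 13603 CPM at ligation 24 h, and 19643 and 14862 CPM at 72 h. Ftl1 gave 8088 and 9188 CPM, 9158 and 12734 CPM, and 17991 and 14017 CPM. Both chains lay higher in each 72 h library than in any 24 h library, although no step reached 2-fold: the log2 ratios of 72 h to 24 h in WT were 0.88 for Fth1 (0.87 to 0.89) and 0.97 for Ftl1 (0.96 to 0.99), and in KO 0.13 and 0.14. Cluster 4 held the highest Fth1 level of the class, 26419 CPM in WT at 72 h. Endothelial-like cells of KO had 1737 CPM of Ftl1 at ligation 24 h and 4225 CPM at 72 h, where macrophage markers summed to 8896 CPM. In neutrophil-like cells Fth1 was 28261, 26382, 30715, 30207, 17784 and 15258 CPM, with both 72 h libraries below the other 4. Ftl1-ps1, a near-identical copy with which Ftl1 reads could be shared, held 39.3 CPM in monocyte/macrophage-like cells of WT after sham, 94.8 CPM in those of KO at 72 h, within 1 CPM of that in WT at 72 h, and at most 52.5 CPM in any other class. Ftl1 levels are uncertain by that much and by reads that the counting discarded.

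The balance of the 2 chains separated the classes. UMIs of Fth1 per UMI of Ftl1 are given to compare cells, not the 2 genes, whose capture was not measured. In monocyte/macrophage-like cells there were 0.90 to 1.17 Fth1 UMIs per Ftl1 UMI, in neutrophil-like cells 2.33 to 5.69, in smooth muscle-like cells 7.03 to 9.79, and in cardiomyocyte-like cells, the few that passed the mesh, 8.49 to 10.1 apart from the KO library at 72 h with 2.35. That library's cardiomyocyte-like cells held 18838 CPM of macrophage markers, against 332 to 656 CPM in the other 3 with at least 50 such cells. The neutrophil ratio was 3.05 (3.00 to 3.10) and 2.97 (2.91 to 3.03) after sham, 5.69 and 4.05 at ligation 24 h, and 2.52 and 2.33 at 72 h. Ftl1 itself was 5397 and 7455 CPM in neutrophil-like cells at ligation 24 h, below the 9259 and 8889 CPM after sham. Both clusters 1 and 2, which held most neutrophil-like cells of KO at 24 h, had lower Ftl1 than cluster 5, at 6781 and 6504 against 12462 CPM. In fibroblast-like cells the ratio was 2.88 and 2.76 after sham, 2.23 and 2.02 at ligation 24 h, and 1.12 and 1.11 at 72 h, lower at each step in both genotypes. The KO value at 72 h stands beside 10929 CPM of macrophage markers, against 2652 CPM in WT, and their part in it was not tested. The makeup of the fibroblast-like class also differed. Cluster 11 held 105 of its 155 WT cells at 72 h, with 2766 CPM of Fth1 and 2534 CPM of Ftl1. Cluster 13, the main one after sham, had 5783 and 2269 CPM in WT after sham. The part of this makeup in the ratio was not tested.

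**Figure D4:**
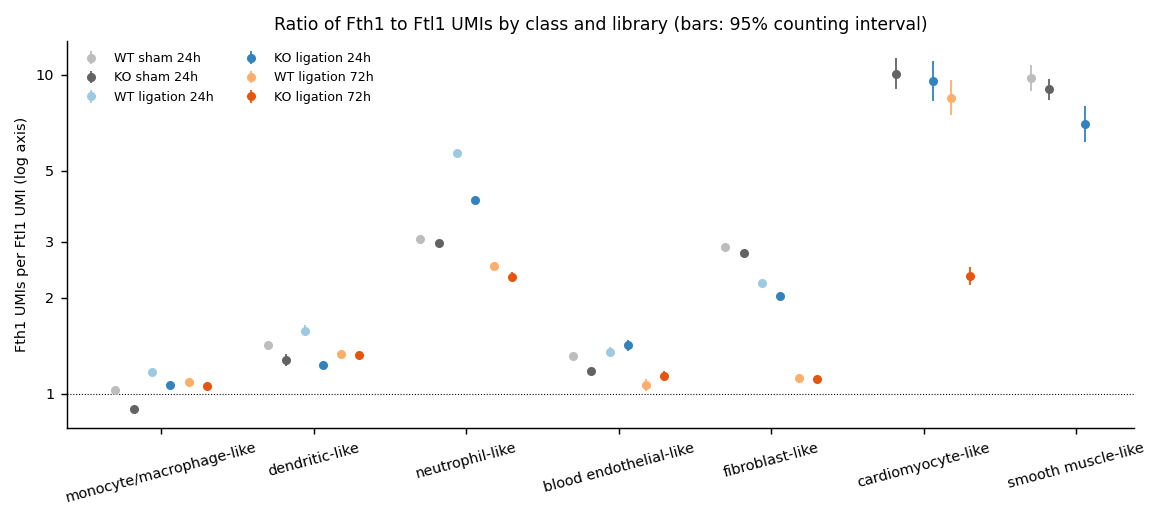
UMIs of Fth1 per UMI of Ftl1 (log axis) for 7 classes; each point is 1 library and bars are 95% counting intervals. Monocyte/macrophage-like cells lie near 1 in all 6 libraries, neutrophil-like cells reach 5.69 in WT at ligation 24 h, and fibroblast-like cells go from 2.88 and 2.76 after sham to 1.12 and 1.11 at 72 h.

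Slc40a1, the only known cellular iron exporter, was a neutrophil RNA in these libraries. Its level in neutrophil-like cells was 82.7 and 147 CPM after sham, 62.0 and 63.3 CPM at ligation 24 h, and 93.7 and 90.5 CPM at 72 h. Only KO at sham stood clear of the rest. In KO the 24 h level was 2.32 times lower than after sham, with a log2 ratio of -1.22 (-1.44 to -0.99), while in WT the log2 ratio was -0.42 (-0.70 to -0.13). In KO it was -1.05 relative to the median gene. In cells thinned to 1000 UMIs, 5.55% to 13.6% of neutrophil-like cells had an Slc40a1 UMI (12.6% to 24.1% unthinned), against 0% to 1.52% of B cell-like cells (0% to 1.49% unthinned). The level differed between clusters: cluster 2, led by Cd177 and Egln3, held 662 of the 1149 WT and 1350 of the 3466 KO neutrophil-like cells at ligation 24 h and had 38.8 and 33.5 CPM, while cluster 1 had 96.6 to 180 CPM in all 6 libraries. Every other class was at or below 15.8 CPM. Monocyte/macrophage-like cells had 5.04, 6.16, 5.06, 4.55, 15.4 and 8.78 CPM, and in WT the log2 ratio of 72 h to 24 h was 1.61 (1.15 to 2.09). Among macrophages it was found in cluster 17, at 34.7 and 29.3 CPM after sham and 47.0 CPM in KO at ligation 24 h, and in cluster 10, at 28.9 CPM in WT and 11.9 CPM in KO at 72 h, while clusters 4 and 9 had at most 8.01 CPM.

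Cp, the ferroxidase that works with ferroportin, was a gene of fibroblasts and pericytes. Fibroblast-like cells had 340 and 307 CPM after sham, 275 and 241 CPM at ligation 24 h, and 65.8 and 79.3 CPM at 72 h. The level was lower at 72 h than at 24 h by 4.18 times in WT, with a log2 ratio of -2.07 (-2.28 to -1.85), and by 3.04 times in KO, with -1.60 (-1.84 to -1.37), where macrophage markers went from 2251 to 10929 CPM. Taken as a mean over cells the WT log2 ratio was -1.06. The 72 h class was made up mainly of cluster 11, led by Cthrc1, Col1a1, Tnc and Postn, genes of scar-forming fibroblasts, with 105 of 155 cells in WT and 894 of 1244 in KO, and this cluster had 28.6 and 30.1 CPM. Macrophage markers summed to 1355 and 6718 CPM in it, and neutrophil markers to 151 and 1640 CPM. Cluster 13, the main one after sham, held 423, 425, 487 and 490 CPM through sham and ligation 24 h. In endothelial-like cells Cp lay in cluster 24, led by Cytl1, H19, Npr3 and Vwf, at 274 and 268 CPM after sham, and in macrophages in cluster 17, at 61.3 and 77.9 CPM after sham. The macrophage class as a whole had 9.56, 16.2, 12.4, 3.80, 1.38 and 3.59 CPM, and cluster 17 made up 202 of its 1048 WT cells after sham and 34 of 2128 at 72 h. Pericyte-like cells held 184 to 322 CPM in 4 libraries and 32.3 CPM in KO at 72 h, where macrophage markers summed to 19100 CPM. In that library 372 of the 392 pericyte-like cells were of cluster 25, led by Hbb-bs and Hba-a2, a different cluster from cluster 28, the main one elsewhere. The mean scaled marker level of cluster 25 was 0.96 for pericytes and 0.88 for smooth muscle, while that of cluster 28 was 5.30 for pericytes. Slc40a1 and Cp were highest in different classes. Neutrophil-like cells, which held Slc40a1, had 0 to 3 UMIs of Cp per library. Fibroblast-like cells, which held Cp, had 2.81 to 6.81 CPM of Slc40a1. Macrophage cluster 17 held both RNAs after sham.

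In the study's own contrast, KO against WT, the counts of these genes before 72 h were near the share over all pairs. After sham, 29 pairs of gene and class were compared and none was at least 2-fold higher (1.1% of all pairs) or lower (0.8%). At ligation 24 h, none of 31 was higher (1.12%) and 1 was lower (1.53%), Cp in monocyte/macrophage-like cells, at 12.4 CPM in WT and 3.80 CPM in KO. At ligation 72 h, 3 of 31 were higher in KO (3.96%) and 1 was lower (1.18%). In monocyte/macrophage-like cells at ligation 24 h, the log2 ratio was 0.35 for Fth1, 0.36 for Hmox1 (0.33 to 0.39) and 0.48 for Ftl1. It was 0.55 for Slc48a1 and 0.62 for Blvrb, so all of these were short of 2-fold. Tfrc, Slc40a1 and Cp had lower levels in KO in this class. The median gene of the class had -0.12, and the share of all genes that lay as high was not counted.

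At 72 h the sign in monocyte/macrophage-like cells was the opposite for Hmox1, Slc48a1, Blvrb, Fth1 and Ftl1. How many other genes of the class also changed sign was not counted. Hmox1 in monocyte/macrophage-like cells was 2.05 times lower in KO than in WT, at 1088 against 2232 CPM, with a log2 ratio of -1.04 (-1.07 to -1.01). Slc48a1 was lower by a log2 ratio of -0.77 (-0.89 to -0.65), Blvrb by -0.46, Fth1 by -0.40 and Ftl1 by -0.36. With only cells of at least 1500 UMIs the Hmox1 log2 ratio was -1.01, and as a mean over cells it was -0.92, just short of 2-fold. Of the clusters with at least 50 cells in both libraries, clusters 4, 7, 10, 14 and 22 had lower Hmox1 in KO. In that order their levels were 2110 against 3938, 1244 against 1703, 1232 against 3002, 981 against 1771 and 332 against 1152 CPM. Cluster 9 was higher in KO, at 473 against 395 CPM. The remaining clusters of the class had too few cells in 1 or both libraries for a level. The class had different makeup in the 2 libraries: cluster 8, led by Igkc, Lgmn and Ms4a7, held 1177 of the 2650 KO cells and 48 of the 2128 WT cells, while clusters 10 and 14 held 590 and 543 WT cells. Igkc is a marker of B cells. At the finer clustering a further B cell-like cluster, led by Igkc and Mzb1, held 186 KO and 2 WT cells of 72 h. How many of these lay in cluster 8 was not counted. The Hmox1 ratio stayed at least 2-fold at that clustering. Depth and genotype cannot be told apart here, since only 1 library of each exists.

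The 3 pairs higher in KO at 72 h were Slc11a1 in endothelial-like cells, with 54 UMIs against 4, Slc11a1 in fibroblast-like cells, with 81 against 29, and Cp in monocyte/macrophage-like cells, at 3.59 against 1.38 CPM on 36 and 40 UMIs. The Slc11a1 pairs are in the classes with the macrophage markers described above. Hmox1 in endothelial-like cells had a log2 ratio of 0.52 (0.26 to 0.78) at 72 h, and of -0.21 with cells of at least 1500 UMIs; in fibroblast-like cells it was 0.19, and it was -0.05 with those cells and 0.96 without the leading barcode of each library.

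**Figure D5:**
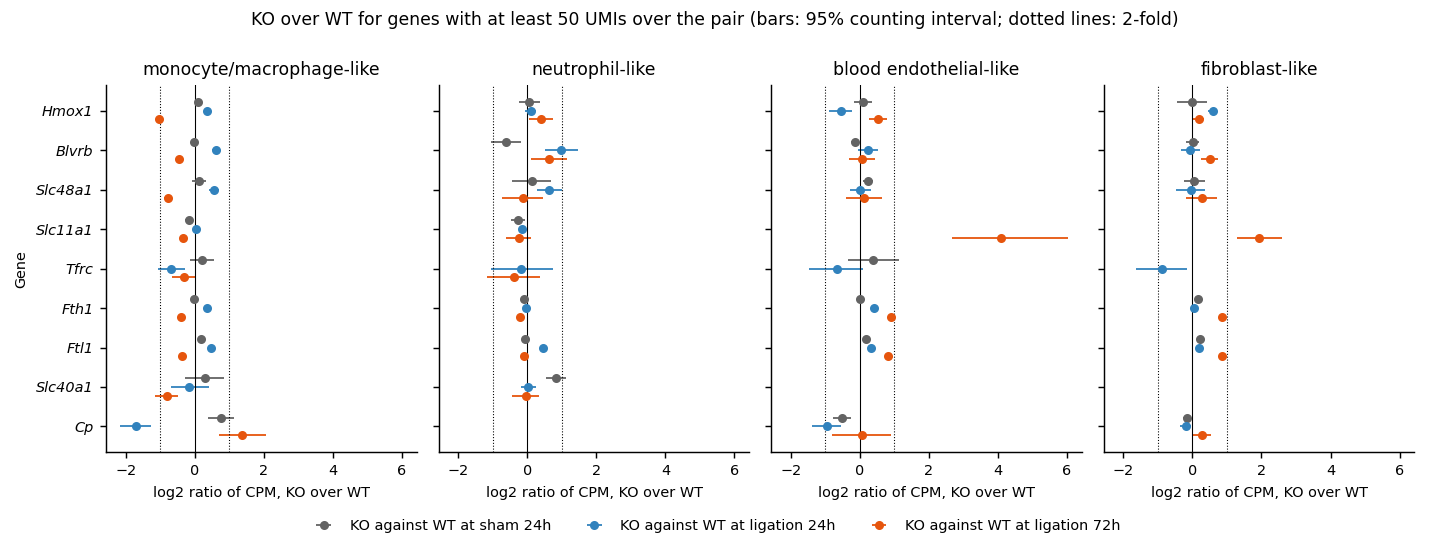
Log2 ratio of CPM, KO over WT, for each gene with at least 50 UMIs over the pair of libraries, in the 4 main classes at sham 24 h, ligation 24 h and ligation 72 h; bars are 95% counting intervals and dotted lines mark 2-fold. In monocyte/macrophage-like cells Hmox1 lies at 0.36 at ligation 24 h and at -1.04 at ligation 72 h, and Slc11a1 in endothelial-like cells at 72 h (4.09) lies apart from all other points.

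Other genes of the pathway were taken from a list of 59. In fibroblast-like cells at ligation 24 h against sham, 4 of the 44 measured were at least 2-fold higher in WT and 2 were lower, with a median log2 ratio of 0.12, against -0.09 over 9164 genes, and in KO 2 of 43 were higher and 4 lower. Over all genes of the class 6.69% were higher and 6.81% lower in WT, and 4.56% and 9.98% in KO, so these counts are near the background. Scara5, a receptor for ferritin, was lower, at 148 CPM after sham and 85.2 CPM at 24 h in WT, short of 2-fold, and at 94.9 and 43.7 CPM in KO. Steap3, a ferrireductase of the endosome, was also lower, at 148 and 68.7 CPM in WT and at 101 and 48.1 CPM in KO. Among monocyte/macrophage-like cells 1 of 42 was higher in WT and none was lower, and in KO 1 of 43 was higher and 3 were lower, against 2.43% and 4.32% of all genes in WT and 1.66% and 7.84% in KO, again near the background.

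Of 10 targets of NRF2, the transcription factor that also drives Hmox1, 4 of 8 measured were at least 2-fold higher in fibroblast-like cells in WT at ligation 24 h and 5 of 8 in KO, with medians of 0.87 and 1.12 on the log2 scale. Over all genes the share at least 2-fold higher in this class was 6.69% and 4.56%. Txnrd1, a thioredoxin reductase, was 41.5 CPM after sham and 176 CPM at 24 h in WT, and 56.3 and 123 CPM in KO. Srxn1, which repairs peroxiredoxins, was 30.8 and 92.0 CPM in WT and 37.4 and 94.6 CPM in KO. Of the NRF2 targets measured in monocyte/macrophage-like cells 1 of 9 was at least 2-fold higher in each genotype, with medians of 0.29 and 0.37, where 2.43% of all genes in WT and 1.66% in KO were. In fibroblast-like cells 5 of the 10 handling genes were also at least 2-fold higher in WT and 4 of 10 in KO; their part in the difference was not tested. From 24 h to 72 h, 4 of 8 NRF2 targets were at least 2-fold lower in fibroblast-like cells in each genotype, with medians of -1.15 in WT and -1.07 in KO against -0.26 and -0.15 over all genes, of which 15.8% were at least 2-fold lower in WT and 7.07% in KO.

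From 24 h to 72 h in WT, 3 of 44 listed genes measured in monocyte/macrophage-like cells were at least 2-fold higher and 6 lower, and in KO 3 of 43 were higher and 5 lower. Over all genes of the class 11.9% were higher and 7.08% lower in WT, and 8.95% and 3.15% in KO. The share higher was thus below the background in both genotypes. The share lower was above it in both, on 6 and 5 genes. Cd163, the hemoglobin and haptoglobin receptor of resident macrophages, was 84.4 CPM in monocyte/macrophage-like cells at ligation 24 h and 8.10 CPM at 72 h in WT, and 75.7 and 9.18 CPM in KO. Lcn2, which binds the iron carriers of bacteria, was 3084 and 352 CPM in neutrophil-like cells in WT and 4880 and 311 CPM in KO. Hp, haptoglobin itself, was 14.0 and 286 CPM in fibroblast-like cells in WT. Hfe, a regulator of iron sensing, was 22.4 and 70.6 CPM in monocyte/macrophage-like cells in WT and 27.2 and 64.9 CPM in KO.

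The genes with the pattern most like each of 5 members were taken over 56 pairs of class and library with at least 50 cells, from 8006 genes, by Pearson's r of log2(CPM + 1). Points of 1 library share its depth and free RNA, so r is a description. Ifi204, Tgfbi and Ctsb were most like Hmox1, at 0.85, 0.85 and 0.83, and Pilra, Atp6v0c and Efhd2 most like Slc11a1, at 0.88, 0.82 and 0.81. For Slc40a1 these were Sfxn5, Gm16556 and Grina, at 0.80, 0.79 and 0.78. Cp was followed most closely by Phldb1, Dennd2a and Oaf, at 0.93, 0.93 and 0.91. Tfrc had the loosest matches, Rbbp8, Tmem131 and Kdm5a, all at 0.74.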

How the data were processed

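Per the labels' protocols, each library holds live cells from 4 mice. Raw UMI counts per gene and cell were deposited by the authors, made with Cell Ranger 6.0.0 on mm10 per the submitters' processing notes; the gene annotation is not given in the sources used here. Cells with at least 200 genes and at most 20% mitochondrial counts were kept. Doublets scored against simulated ones were removed at 0.8% per 1000 cells (1708), and 119 barcodes with at least 10% hemoglobin counts were set aside. At ligation 72 h, 71 of these barcodes came from KO and 9 from WT. Clusters came from 2000 variable genes, 30 principal components, 20 neighbours and Leiden resolution 1 (leidenalg 0.10.2, scikit-learn 1.9.0). The marker rule for naming clusters and the hemoglobin limit were settled after clusters were seen, and cluster names are rebuilt, not the authors'. Members and gene lists were chosen with earlier results of these data known. Counts were summed per class and library; levels need 50 cells. Intervals are exact (95%; Poisson for CPM, conditional binomial for ratios) and cover counting error only, with 3 counts standing for 0. Besides the 9 genes, the 3 highest and 3 lowest ratios per comparison and class were eligible to be named, among listed genes at 50 CPM or more. The procedure was tested on simulated data.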

Additional observations from a re-analysis of the deposited data

Results flagged for a closer look

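In 3 cases the level went one way from ligation 24 h to ligation 72 h in WT and the other way in KO, each from 1 library per time and genotype, and the difference between the genotypes was not tested. Hmox1 in monocyte/macrophage-like cells had a log2 ratio of 0.90 in WT and -0.50 in KO. Slc48a1 in the same class had 1.02 in WT and -0.30 in KO. Ftl1 in neutrophil-like cells had 0.38 in WT and -0.19 in KO, and relative to the median gene the WT value was -0.16, so that both genotypes then had the same sign. The KO library at 72 h was the shallow one, with a median of 1280 UMIs per cell. With only cells of at least 1500 UMIs the KO ratios were -0.47 for Hmox1 and -0.29 for Slc48a1.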

How the results depend on the processing

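No paired analysis was possible because each group is 1 library. Of the 38 pairs of gene and class at least 2-fold apart, 31 of 35 with a value stayed so at Leiden resolution 0.5, 38 at resolution 2, 37 with no doublets removed, 31 as a mean over cells, 36 of 37 in cells with at least 1500 UMIs, 33 relative to the median gene and 35 of 37 without the barcode with most UMIs in each library; 24 were in a class with at least 0.25 of the highest class's level. Direction was lost once, for Hmox1 in endothelial-like cells from 24 h to 72 h in WT (-0.59 at resolution 0.5). Counts changed as follows. For WT at 24 h against sham, 1 lower became 2 as a mean over cells and 0 under the limit to 0.25 of the highest class. For KO, 3 higher became 5 with no doublets removed, 5 as a mean over cells, 5 relative to the median gene and 6 at a minimum of 20 counts, and 4 lower became 2 as a mean over cells, 2 relative to the median gene and 2 under the limit. From 24 h to 72 h in WT, 7 higher became 4 as a mean over cells and 4 under the limit, and 5 lower became 3 under the limit. In KO, 2 lower became 4 in cells with at least 1500 UMIs. For KO against WT after sham, 0 higher became 1 and 0 lower became 2 at 20 counts. At ligation 24 h, 0 higher became 1 at resolution 2, with no doublets removed, as a mean over cells, at 20 counts and without the leading barcode, and 1 lower became 2 at resolution 0.5 and without the leading barcode and 0 under the limit. At ligation 72 h, 3 higher became 7 with no doublets removed, 8 as a mean over cells, 5 without the leading barcode and 1 under the limit. The cause was not tested. Depth limits the sparse genes: the counting interval reached 457% of the value for Cp in neutrophil-like and Slc40a1 in endothelial-like cells, 261% for Slc11a1 in fibroblast-like and 133% for Tfrc in neutrophil-like cells, against at most 3.37% for Hmox1 in monocyte/macrophage-like cells.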
